A study of Mus musculus with 15 samples.

Results

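Colon mRNA abundance in Il10-/- mice aged 7 weeks, sampled before histological colitis, was compared to that in C57 mice of equal age. The comparison rests on 7 of the 15 arrays of the series, 3 from Il10-/- mice (mice 75, 77 and 78) and 4 from C57 mice (mice 43, 44, 45 and 46), each holding colon RNA of 1 mouse. Arrays were assigned by the genotype and age in their titles, since the strain and age labels are the same on every array. Il10-/- mice were males of the line B6.129P2-Il10<tm1Cgn>/J, which lacks a functional Il10 gene in all tissues, and C57 mice were C57BL/6J males. All mice were bought in, housed singly and dosed by mouth, shortly after arrival, with Enterococcus faecalis and Enterococcus faecium strains plus gut flora of healthy C57BL/6J mice. All ate the AIN-76A powder diet in amounts set by the intake of the Il10-/- mice, and all went through a fast-feed period before sampling. The other 8 arrays, from 4 Il10-/- mice with moderate colitis and 4 C57 mice at 12 weeks, shared the estimate of the spread and served for the comparison of ages. Il10-/- mice of 7 weeks that already had an inflamed colon were not hybridized, so the 3 arrays describe mice selected for uninflamed tissue. The controls were a separately bred line, and the effect of the deleted gene cannot be told apart from other differences between the lines.

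Interleukin 10 is a cytokine, made by T cells and macrophages among others, that acts through STAT3 to restrain the response of the gut wall to its bacteria. Among the cytokines it restrains is interferon gamma of T helper cells, which acts through its receptor and the kinases JAK1 and JAK2. Genes that answer to it often carry GAS elements in their promoters, and interferon regulatory factors, which it raises, bind ISRE elements. Among the best-known targets are the p47 GTPases and the guanylate-binding proteins, which attack vacuoles that hold bacteria or parasites. The tissue in question is the whole wall of the colon, whose surface cells absorb water, salt and short-chain fatty acids, whose goblet cells make mucus, and whose enteroendocrine cells make hormones.

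Promoters are shown for 9 genes that were called higher in Il10-/- mice, chosen because they hold short motifs known from promoters of interferon-regulated genes. For Gbp3 and Irf1, which have 2 promoters in the table, the window with a motif is shown. Each line gives the 100 bases before the annotated start, 5′ to 3′ on the strand of the gene, from RefSeq on GRCm38.p6. Capitals mark GAS motifs (TTCNNNGAA, which reads the same on both strands) and ISRE motifs (GAAANNGAAA, or TTTCNNTTTC where it lies on the other strand). Of the 32851 promoter windows in the table, 2.55% held a GAS motif, 0.983% an ISRE motif and 0.0457% both in these 100 bases.
Igtp (chr11:58199456-58199555, plus strand): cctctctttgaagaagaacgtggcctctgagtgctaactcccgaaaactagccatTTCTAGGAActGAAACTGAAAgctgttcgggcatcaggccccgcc
Irgm2 (chr11:58214877-58214976, plus strand): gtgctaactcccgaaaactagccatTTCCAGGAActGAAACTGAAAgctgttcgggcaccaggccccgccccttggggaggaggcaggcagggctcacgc
Tgtp1 (chr11:48992247-48992346, minus strand): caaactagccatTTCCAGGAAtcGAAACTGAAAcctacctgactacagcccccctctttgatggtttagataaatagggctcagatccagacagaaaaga
Irgm1 (chr11:48871421-48871520, minus strand): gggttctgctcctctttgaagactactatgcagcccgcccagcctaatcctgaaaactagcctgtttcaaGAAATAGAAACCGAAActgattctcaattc
Gbp2 (chr3:142620563-142620662, plus strand): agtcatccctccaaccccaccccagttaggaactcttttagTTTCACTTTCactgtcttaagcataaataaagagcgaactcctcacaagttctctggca
Gbp3 (chr3:142559944-142560043, plus strand): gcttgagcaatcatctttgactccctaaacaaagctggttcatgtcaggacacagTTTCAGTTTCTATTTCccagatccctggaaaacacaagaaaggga
Socs1 (chr16:10785537-10785636, minus strand): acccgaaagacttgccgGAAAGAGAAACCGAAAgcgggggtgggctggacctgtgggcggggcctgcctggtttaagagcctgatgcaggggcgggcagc
Irf1 (chr11:53769914-53770013, plus strand): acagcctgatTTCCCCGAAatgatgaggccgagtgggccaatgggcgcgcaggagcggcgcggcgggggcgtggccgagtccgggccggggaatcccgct
Psmb8 (chr17:34198095-34198194, plus strand): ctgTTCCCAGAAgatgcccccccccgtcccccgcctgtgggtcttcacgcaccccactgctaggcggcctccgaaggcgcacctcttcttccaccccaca
In Igtp, Irgm2 and Tgtp1, genes of p47 GTPases, a GAS motif was followed after 2 bases by the same ISRE motif, GAAACTGAAA. The GAS motif began 45 bases before the start in Igtp, 75 bases in Irgm2 and 88 bases in Tgtp1. Overlapping ISRE motifs lay in the windows of Irgm1, Gbp3 and Socs1. Among genes with a promoter in the table, 14 of the 200 that were called higher (7.0%) held an ISRE motif in this window, as did 1 of 151 called lower (0.662%) and 158 of 14946 not called (1.06%). GAS motifs were held by 7.5% of those called higher, 3.31% of those called lower and 2.74% of those not called. These are matches of letters, and whether a factor binds them was not measured.

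Values are the authors' log2 ratios of colon over a common pool, made from fetuses and from liver, kidney, colon and small intestine of Swiss mice. Differences are Il10-/- minus C57 on the log2 scale, given with their standard error (SE) from limma, so that a positive value means higher expression in Il10-/- mice. Values of single mice follow the order 75, 77, 78 and 43, 44, 45, 46. A gene was called where the difference reached 1.5-fold and the Benjamini-Hochberg adjusted p was under 0.05. Of 19076 genes tested, 268 (1.4%) were called higher and 193 (1.01%) lower in Il10-/- mice, together 2.42% of all genes, as the plot of all genes tested shows. Differences over 2-fold were found for 82 of the higher and 49 of the lower genes. At an unadjusted p under 0.05 in limma, 1914 of the 19076 genes were higher and 2136 lower. List counts at that level are to be read beside these. Mice are separate animals. Unless stated otherwise, the p-values rest on the spread between mice within groups, estimated over all arrays of the series. The spread among mice of the other age therefore enters the SE and p of each gene as well. The colon is a bulk tissue, in which fewer cells of a type and less RNA per cell cannot be told apart.

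**Figure D1:**
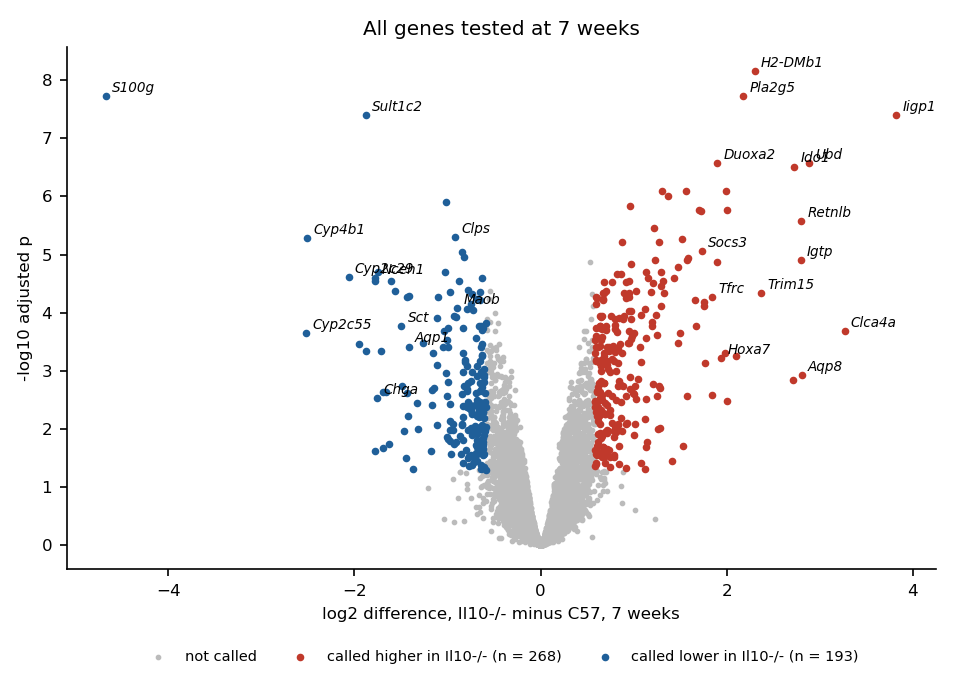
Each point is a gene, plotted by its log2 difference between Il10-/- and C57 mice of 7 weeks (x axis) and the −log10 of its adjusted p (y axis). Red points are the 268 genes called higher and blue points the 193 called lower in Il10-/- mice; S100g lies farthest to the left, at −4.67, and Iigp1 farthest to the right, at 3.83.

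The 7 mice correlated more closely within than across genotypes. Over 18883 genes, Pearson's r was 0.928 to 0.943 between the Il10-/- mice, 0.905 to 0.961 between the C57 mice and 0.801 to 0.883 across genotypes. In 456 of the 461 called genes the Il10-/- mice lay wholly above or wholly below the C57 mice, as they did in 23.1% of all genes. The Il10-/- mice differed in degree, since mouse 78 was the highest of the 3 in 118 of the 268 higher genes and the lowest in 131 of the 193 lower genes. Mouse 75 was the lowest of the 3 in 130 of the higher genes. Genes of the colon epithelium averaged 0.49 to 0.79 in Il10-/- mice and 0.28 to 0.47 in C57 mice (17 genes), whereas those of the liver, which is in the pool, averaged −3.42 to −3.13 and −3.12 to −2.97 (13 genes). Il10 itself was read by 1 feature, at 0.18, 0.01 and 0.01 in Il10-/- mice, against 0.05, −0.17, −0.06 and −0.12 in C57 mice, and that feature need not lie in the disrupted part.

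Interferon-regulated GTPases held the largest share of higher genes of any list examined. Of 8 p47 GTPases measured, 6 were called higher, with a median difference of 1.39 over the list, beside −0.01 for all genes. Iigp1 stood at 1.97, 1.37 and 1.34 in Il10-/- mice, against −1.70, −2.28, −2.49 and −2.59 in C57 mice. Its difference of 3.82 ± 0.21, adjusted p = 3.96e-08, was the largest rise of any called gene. Igtp stood at 1.62, 1.18 and 1.03 in Il10-/- mice, against −0.63, −1.58, −1.89 and −1.96 in C57 mice, a difference of 2.79 ± 0.26, adjusted p = 1.24e-05. In both genes the groups lay more than 1 log2 unit apart, and mouse 43 was the highest of the C57 mice. Irgm2 (1.89 ± 0.18), Ifi47 (1.48 ± 0.21), Tgtp1 (1.30 ± 0.13) and Irgm1 (0.95 ± 0.13) rose as well, whereas Gm12250 (0.36 ± 0.11) was not called. The value of Tgtp1 rests on its features unequally, since 1 feature gave 2.49 and the other 0.10, and members of this family are near-copies that a probe may not tell apart.

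Guanylate-binding proteins rose alongside. Of 10 measured, 6 were called higher, and all 10 differences were positive. Gbp2 stood at 1.75, 1.54 and 1.28 in Il10-/- mice, against −0.17, −0.40, −0.57 and −0.74 in C57 mice, with a difference of 1.99 ± 0.14, adjusted p = 8.02e-07. Gbp4 (1.56 ± 0.11), Gbp11 (1.27 ± 0.11), Gbp3 (1.12 ± 0.23), Gbp6 (0.84 ± 0.14) and Gbp7 (0.72 ± 0.11) followed. Gbp5 (0.53 ± 0.09) passed the adjusted p but not the 1.5-fold threshold, and without Il10-/- mouse 78 it was called, at 0.60. In Gbp2, Gbp3, Gbp4, Gbp6 and Gbp7, mouse 75 was the highest of the Il10-/- mice.

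**Figure D2:**
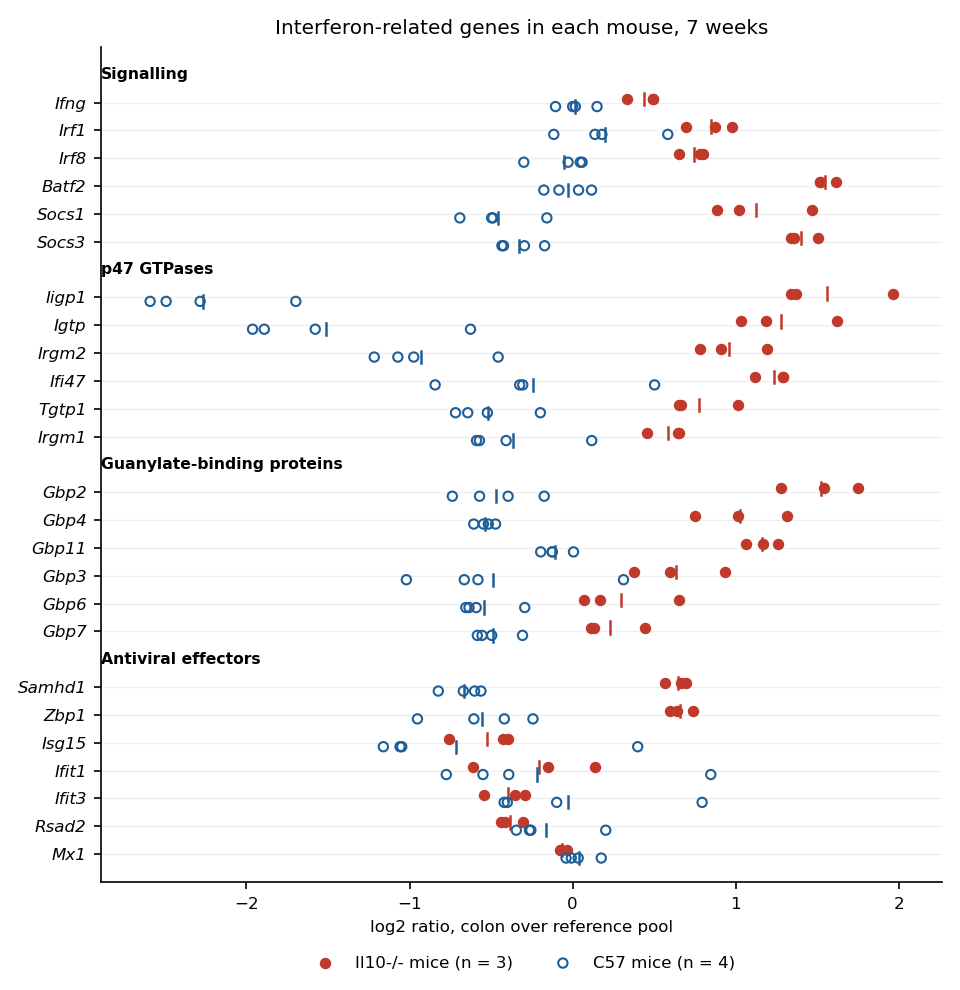
Log2 ratio of colon over reference pool (x axis) of interferon-related genes (rows) in each mouse of 7 weeks; filled red points are the 3 Il10-/- mice, open blue points the 4 C57 mice, and ticks the group means. The p47 GTPases and guanylate-binding proteins of the 2 genotypes do not overlap, whereas C57 mouse 43 lies above every Il10-/- mouse for Isg15, Ifit1, Ifit3, Rsad2 and Mx1.

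Among the genes that lead to these targets, regulators of the signal were called but the ligand and its receptor were not. Of 30 interferon ligands, receptors and signalling genes, 6 were called higher and 0 lower. Ifng, the ligand, was read at 0.49, 0.49 and 0.33 in Il10-/- mice, against −0.10, 0.00, 0.02 and 0.15 in C57 mice, which gave 0.42 ± 0.10, adjusted p = 0.0116, below the 1.5-fold threshold. The receptor chain Ifngr1 differed by 0.43 ± 0.07, adjusted p = 0.000758, also under that threshold, and Ifngr2 by 0.05 ± 0.11. The kinases Jak1 (0.03 ± 0.10) and Jak2 (0.10 ± 0.07) and the interleukin 10 effector Stat3 (0.21 ± 0.07) were not called.

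The suppressors of cytokine signalling rose most in this list. Socs3 binds JAK kinases and shuts off some of the signals that run through STAT3. It stood at 1.5, 1.34 and 1.36 in Il10-/- mice, against −0.43, −0.30, −0.17 and −0.42 in C57 mice. Its difference was 1.73 ± 0.16, adjusted p = 8.65e-06, and all Il10-/- mice lay at least 1.5 log2 units above every C57 mouse. Socs1, the inhibitor of the interferon gamma receptor, stood at 1.47, 1.02 and 0.89 in Il10-/- mice, against −0.16, −0.50, −0.49 and −0.69 in C57 mice and differed by 1.58 ± 0.15, adjusted p = 1.14e-05. Among transcription factors, Batf2 rose by 1.57 ± 0.15, Irf8 by 0.80 ± 0.11 and Irf1 by 0.65 ± 0.12. Irf1, an interferon-induced transcription factor, lost its call without C57 mouse 46, at 0.55, and its features ranged from −0.13 to 1.29. Stat2, of the type I interferon pathway, was called at 0.72 ± 0.18, but mouse 43 overlapped the Il10-/- mice and the call was lost at 0.60 to 0.72 without any 1 of C57 mice 44, 45 and 46 or Il10-/- mice 77 and 78.

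Of 32 antiviral effectors, which answer mainly to type I interferon, 2 were called higher (6.25%), with a median difference of 0.10. At an unadjusted p under 0.05 in limma, 9 were higher and 3 lower, beside 1914 higher and 2136 lower of all 19076 genes. Samhd1, a nucleotide-depleting restriction factor, stood at 0.67, 0.57 and 0.69 in Il10-/- mice, against −0.82, −0.60, −0.56 and −0.67 in C57 mice (1.31 ± 0.09, adjusted p = 8.22e-07). Zbp1, a sensor of nucleic acids that can trigger cell death, stood at 0.64, 0.74 and 0.59 in Il10-/- mice, against −0.24, −0.61, −0.42 and −0.95 in C57 mice (1.21 ± 0.13, adjusted p = 3.03e-05). Neither gene overlapped between genotypes. By contrast, Isg15 (0.19 ± 0.31), Oas1a (0.12 ± 0.18), Ifit1 (0.01 ± 0.35), Ifit3 (−0.36 ± 0.23), Rsad2 (−0.22 ± 0.11) and Mx1 (−0.10 ± 0.08) were not called, and Irf7, which amplifies type I interferon, was at −0.59 ± 0.18, which became a call without C57 mouse 46 (−0.725) and under scale and quantile normalization (−0.63 and −0.65). C57 mouse 43 stood apart in these genes, at 0.40 for Isg15 and 0.85 for Ifit1, where the other C57 mice lay between −1.16 and −1.05 and between −0.77 and −0.39. Without mouse 43 the list had 5 members called higher, adding Ifit2 (0.70), Usp18 (0.61) and Parp9 (0.59). Ifi27l2a was called lower without C57 mouse 46 (−0.67) or Il10-/- mouse 75 (−0.75).

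MHC class II genes rose in 7 of 13 members. H2-DMb1, part of the molecule that loads peptides onto class II, stood at 1.44, 1.63 and 1.65 in Il10-/- mice, against −0.66, −0.52, −0.75 and −0.97 in C57 mice (2.30 ± 0.10, adjusted p = 6.91e-09). Cd74, the invariant chain, stood at 1.57, 1.90 and 1.72 in Il10-/- mice, against −0.20, 0.12, −0.47 and −0.56 in C57 mice (2.01 ± 0.16, adjusted p = 1.74e-06). The groups lay over 1.4 log2 units apart in both genes. Ciita, the factor that controls the class II genes, rose by 1.48 ± 0.14. The class II chains H2-Eb1 (1.32 ± 0.14), H2-Ab1 (1.13 ± 0.11) and H2-Aa (0.80 ± 0.10) followed, and H2-DMa (0.60 ± 0.07) lay so near the threshold that its call was lost at 0.565 to 0.583 without C57 mouse 46 or Il10-/- mice 75 or 77, with array weights or under quantile normalization. In the class I list 4 of 25 were called higher. They were the immunoproteasome subunits Psmb9 (1.43 ± 0.15) and Psmb8 (1.23 ± 0.12), the peptide transporter Tap1 (0.81 ± 0.15) and H2-Q8 (0.97 ± 0.09). Ubd, an interferon-induced tag that sends proteins to the proteasome, stood at 1.65, 1.99 and 0.85 in Il10-/- mice, against −1.18, −1.54, −1.42 and −1.42 in C57 mice (2.89 ± 0.19, adjusted p = 2.66e-07).

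Chemokines that attract T cells under interferon gamma rose, and few others did. Cxcl9 stood at 1.51, 1.35 and 1.27 in Il10-/- mice, against −0.01, −0.29, −0.52 and −0.50 in C57 mice (1.70 ± 0.13, adjusted p = 1.71e-06). Cxcl10 stood at 1.42, 0.80 and 0.84 in Il10-/- mice, against −0.21, −0.68, −0.84 and −0.81 in C57 mice (1.66 ± 0.19, adjusted p = 6.17e-05), with mouse 75 the highest. Of the 48 chemokines and receptors measured, 4 were called higher and 1 lower. The other calls were Cxcl5 (0.79 ± 0.18), a neutrophil attractant, the receptor Cxcr6 (0.60 ± 0.16) and, lower, Cxcl12 (−0.62 ± 0.14). These 3 calls depended on single mice. Cxcl5 was not called without Il10-/- mice 75 or 78 (0.70 and 0.69), Cxcr6 without any 1 of the Il10-/- mice or of C57 mice 43 and 46 (0.50 to 0.67), and Cxcl12 without Il10-/- mice 77 or 78 or C57 mouse 44 (−0.48 to −0.56).

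Of 54 interleukins and receptors, 2 were called higher (3.7%), while 13 were higher and 1 lower at an unadjusted p under 0.05 in limma. Of the differences 38 were positive, and the list mean ran from 0.08 to 0.12 in Il10-/- mice and from −0.01 to 0.00 in C57 mice. Il18, a cytokine of the epithelium, stood at 0.43, 0.53 and 0.74 in Il10-/- mice, against −0.50, −0.35, 0.02 and −0.22 in C57 mice (0.83 ± 0.12, adjusted p = 0.000418). Il13ra1, a receptor chain for interleukins 4 and 13, differed by 0.66 ± 0.08, adjusted p = 0.000114. Il1b stood at 1.05, 0.69 and 1.19 in Il10-/- mice, against 0.04, 0.28, 0.02 and 0.05 in C57 mice and, although the mice did not overlap, missed the threshold (0.88 ± 0.38, adjusted p = 0.19). With the 7 arrays of 7 weeks alone it was called (0.88 ± 0.12, adjusted p = 0.00161). Differences were 0.00 ± 0.12 for Il6, 0.09 ± 0.12 for Il17a, 0.00 ± 0.07 for Il22, −0.05 ± 0.08 for Il23a and 0.43 ± 0.13 for Tnf, and none of these was called. Ratios alone do not show whether the signal of these genes stood above background.

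Of 29 genes of Toll-like receptors and NF-kappaB, 7 were called higher and 0 lower. Tlr9, the receptor of bacterial DNA, stood at 0.75, 0.41 and 0.36 in Il10-/- mice, against −0.45, −0.42, −0.25 and −0.66 in C57 mice (0.96 ± 0.12, adjusted p = 9.26e-05). Cd14, the coreceptor of lipopolysaccharide, stood at 0.35, 0.44 and 0.64 in Il10-/- mice, against −0.42, −0.40 and −0.59 in C57 mice 44, 45 and 46, with no value in mouse 43 (0.95 ± 0.10, adjusted p = 5.32e-05). The other 5 are inhibitors or modulators of NF-kappaB, namely Bcl3 (0.70 ± 0.20), Tnfaip3 (0.65 ± 0.11), Nfkbia (0.65 ± 0.11), Nfkbiz (0.64 ± 0.08) and Nfkbie (0.59 ± 0.09). Their differences lie close to the 1.5-fold threshold. The features of Nfkbiz gave 0.17 and 1.11. Nfkbia and Nfkbie lost the call without Il10-/- mouse 77 (0.53 and 0.57), Nfkbie also without C57 mice 44 or 46 (0.55 and 0.57), and Bcl3 without any 1 mouse other than C57 mouse 46 (0.61 to 0.74). Under quantile normalization Bcl3, Tnfaip3 and Nfkbiz were not called, and the list held 4. Rela, a subunit of NF-kappaB, was at −0.02 ± 0.06, and Tlr4 at 0.37 ± 0.10.

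Tryptophan breakdown showed a rise at its entry. Ido1, which turns tryptophan into kynurenine, stood at 2.54, 2.14 and 1.98 in Il10-/- mice, against −0.20, −0.71, −0.48 and −0.64 in C57 mice (2.73 ± 0.18, adjusted p = 3.08e-07). Wars, the tryptophan tRNA ligase that interferon gamma induces, rose by 0.82 ± 0.11, with features at 0.23 and 1.40. Maob, which breaks down monoamines, stood at −1.64, −1.61 and −1.66 in Il10-/- mice, against −0.77, −0.79, −0.79 and −0.61 in C57 mice and fell (−0.89 ± 0.11, adjusted p = 8.44e-05). The other 14 of the 17 measured enzymes of tryptophan and serotonin were not called, among them Tph1, which starts serotonin synthesis in the gut (−0.34 ± 0.08), though it was called by its most variable feature (−0.62).

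Of 34 antimicrobial and lectin genes, 6 were called higher and 2 lower, while the median difference was −0.02, with 17 members positive and 17 negative. Pla2g5, a secreted phospholipase A2, stood at 1.80, 1.54 and 2.0 in Il10-/- mice, against −0.44, −0.41, −0.35 and −0.40 in C57 mice (2.18 ± 0.11, adjusted p = 1.89e-08). Retnlb, a goblet cell protein active against bacteria, stood at −0.12, −0.21 and 0.10 in Il10-/- mice, against −3.32, −3.11, −2.07 and −2.98 in C57 mice, with no overlap. Its 3 Il10-/- values are ones that 119, 140 and 119 features of the same arrays share, so they are read as a limit and no fold is given. Reg3g, an antibacterial lectin, was at the same shared value in the Il10-/- mice and at −1.93, −1.73, 0.05 and −1.61 in C57 mice, and was not called.

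S100a9, a calcium-binding protein of neutrophils and stressed epithelium, stood at 1.03, 0.68 and 1.32 in Il10-/- mice, against −1.48, −0.98, −0.58 and −0.92 in C57 mice (2.0 ± 0.37, adjusted p = 0.00325). Its partner S100a8 stood at 0.41, 0.23 and 1.92 in Il10-/- mice, against −0.82, −0.71, −0.51 and −0.66 in C57 mice (1.53 ± 0.38, adjusted p = 0.0196), and mouse 78 alone reached over 0.5, so that without it the difference was 1.0 and not called. It was not called without C57 mouse 43 either (1.48). Sprr1a, an envelope protein of stressed epithelium (1.01 ± 0.23), lost its call without mouse 78 (0.82). Lyz1, the lysozyme of Paneth cells (0.85 ± 0.24), lost it without any 1 mouse other than C57 mouse 44 (0.70 to 0.93). The 2 lower members were Retnla (−0.84 ± 0.20), not called without C57 mouse 45 or Il10-/- mice 77 or 78 (−0.75 to −0.80), and Ang (−0.60 ± 0.10), not called without C57 mouse 45 (−0.54) or Il10-/- mouse 75 (−0.58), nor under scale (−0.50) or quantile normalization (−0.37). Mpo, the peroxidase of neutrophils, was at −0.03, 0.07 and 0.04 in Il10-/- mice, against 0.00, −0.06, 0.07 and −0.07 in C57 mice, and the 21 neutrophil genes had a median difference of 0.04 with S100a8 and S100a9 as the called members. Their list mean ran from 0.06 to 0.24 in Il10-/- mice and from −0.11 to −0.07 in C57 mice, and its part in the results was not tested.

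Hydrogen peroxide enzymes were represented by 2 genes of 34. Duoxa2, which brings the peroxide-making oxidase DUOX2 to the cell surface, stood at 1.72, 1.89 and 1.75 in Il10-/- mice, against 0.04, −0.28, 0.05 and −0.26 in C57 mice (1.90 ± 0.12, adjusted p = 2.66e-07). Gpx2, the gut glutathione peroxidase, stood at 1.59, 1.45 and 1.80 in Il10-/- mice, against 0.04, 0.15, 0.50 and 0.74 in C57 mice (1.26 ± 0.17, adjusted p = 0.000241). Neither gene overlapped between genotypes. Duox2 itself did not overlap either but was not called (0.49 ± 0.15), except without mouse 75 (0.61). Nos2 (0.11 ± 0.07) was not called. Trim15, of the tripartite motif family, stood at 2.03, 2.11 and 2.05 in Il10-/- mice, against −0.29, −0.54, −0.04 and −0.35 in C57 mice (2.37 ± 0.26, adjusted p = 4.57e-05), and its relative Trim31 rose by 0.94 ± 0.13; the other 55 members of that family measured were not called. Casp4, the sensor of lipopolysaccharide in the cytosol, stood at 2.14, 2.48 and 2.45 in Il10-/- mice, against 1.14, 1.25, 1.15 and 0.59 in C57 mice (1.32 ± 0.15, adjusted p = 4.53e-05). Among the mucins, the cell-surface Muc4 (0.96 ± 0.10) and Muc13 (0.92 ± 0.10) rose, whereas Muc2, the mucin of the mucus gel (0.12 ± 0.23), and Tff3 (−0.09 ± 0.12), both made by goblet cells, were not called.

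Genes of surface colonocytes that handle water and ions moved in both directions. Aqp8, the water channel of surface cells, stood at −0.88, 1.10 and 1.68 in Il10-/- mice, against −2.25, −2.35, −2.11 and −1.99 in C57 mice (2.81 ± 0.46, adjusted p = 0.0012). Mouse 75 lay between the C57 mice and the other Il10-/- mice. Clca4a, a regulator of chloride conductance, stood at 0.26, 0.96 and 1.52 in Il10-/- mice, against −2.35, −2.66, −2.42 and −2.0 in C57 mice (3.27 ± 0.43, adjusted p = 0.000206), and its neighbour Clca4b at 0.17, 0.71 and 1.51 in Il10-/- mice, against −1.78, −2.33, −2.01 and −1.52 in C57 mice (2.71 ± 0.45, adjusted p = 0.00146). In these 3 genes mouse 75 was the lowest and mouse 78 the highest of the Il10-/- mice, and none overlapped with C57 mice.

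The same order of mice returned in Aqp4, which stood at 0.28, 0.79 and 1.56 in Il10-/- mice, against −0.89, −1.07, −0.74 and −0.82 in C57 mice (1.76 ± 0.21, adjusted p = 7.72e-05), and in Slc26a3, the chloride and bicarbonate exchanger of colonocytes. Slc26a3 stood at 0.42, 1.09 and 1.56 in Il10-/- mice, against 0.37, 0.25, 0.37 and 0.36 in C57 mice and was not called (0.68 ± 0.22, adjusted p = 0.0759). Without mouse 75 and with array weights it was called, at 0.99 and 0.73. Its 3 features ranged from −0.03 to 1.08. Car4, the surface carbonic anhydrase, rose by 0.83 ± 0.18 and Car7 fell by 0.66 ± 0.13; without mouse 78 neither was called (0.74 and −0.49). None of the 30 genes of sodium, chloride and potassium transport was called, against 3 higher and 7 lower at an unadjusted p under 0.05 in limma. Aqp1, the water channel of small vessels, stood at −1.94, −2.07 and −2.78 in Il10-/- mice, against −0.80, −0.77, −0.97 and −0.84 in C57 mice and fell (−1.42 ± 0.20, adjusted p = 0.000384), with mouse 78 the lowest.

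S100g, the calbindin that carries calcium through absorptive cells, had the largest difference of all genes. It stood at −3.33, −2.78 and −3.41 in Il10-/- mice, against 1.92, 1.37, 1.24 and 1.44 in C57 mice. The difference was −4.67 ± 0.24, adjusted p = 1.89e-08, and no mouse of either genotype came near the other. Atp2b1, the pump that exports calcium to the blood, fell by 0.63 ± 0.07 and was not called without C57 mouse 46 (−0.58). The apical channel Trpv6 (−0.01 ± 0.09), the vitamin D receptor Vdr (−0.34 ± 0.17) and its target Cyp24a1 (0.04 ± 0.11) were not called, so that 2 of 15 genes of calcium absorption passed.

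Genes of nutrient handling were called in part. Of 28 genes of glycolysis, gluconeogenesis and sugar transport, 3 were called higher and 4 lower (25.0%, beside 2.42% of all genes). Tfrc, the transferrin receptor, stood at 1.39, 0.96 and 1.46 in Il10-/- mice, against −1.17, −0.49, −0.31 and −0.31 in C57 mice (1.84 ± 0.21, adjusted p = 5.32e-05), and the other 19 genes of iron handling were not called. Ada, the adenosine deaminase, stood at −1.99, −0.18 and −1.07 in Il10-/- mice, against −2.93, −2.57, −3.06 and −3.11 in C57 mice (1.84 ± 0.33, adjusted p = 0.00264). The Il10-/- mice were widely spread but all above the C57 mice. Slc16a3, the lactate exporter, stood at −1.0, −1.02 and −0.22 in Il10-/- mice, against −1.94, −2.08, −1.97 and −2.09 in C57 mice (1.27 ± 0.22, adjusted p = 0.00179). Slc5a8, the sodium-coupled importer of short-chain fatty acids, rose by 0.98 ± 0.13, Stra6, the receptor of retinol-binding protein, by 1.22 ± 0.10, and Hk2, the hexokinase of growing cells, by 1.5 ± 0.20. In the list of short-chain fatty acid genes, 2 of 9 were called higher and 1 lower, Acsm3, a medium-chain acyl-CoA synthetase (−0.80 ± 0.20). Acsm3 was not called under scale or quantile normalization (−0.65 and −0.49) or without C57 mouse 46 or any 1 Il10-/- mouse (−0.75 to −0.85). Sterol synthesis had 4 of 23 genes called higher, namely Sqle (0.83 ± 0.13), Fdps (0.66 ± 0.12), Ebp (0.65 ± 0.08) and Idi1 (0.63 ± 0.12). Idi1 was not called without mouse 78 (0.54), and 7 genes of the list were called without mouse 75.

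**Figure D3:**
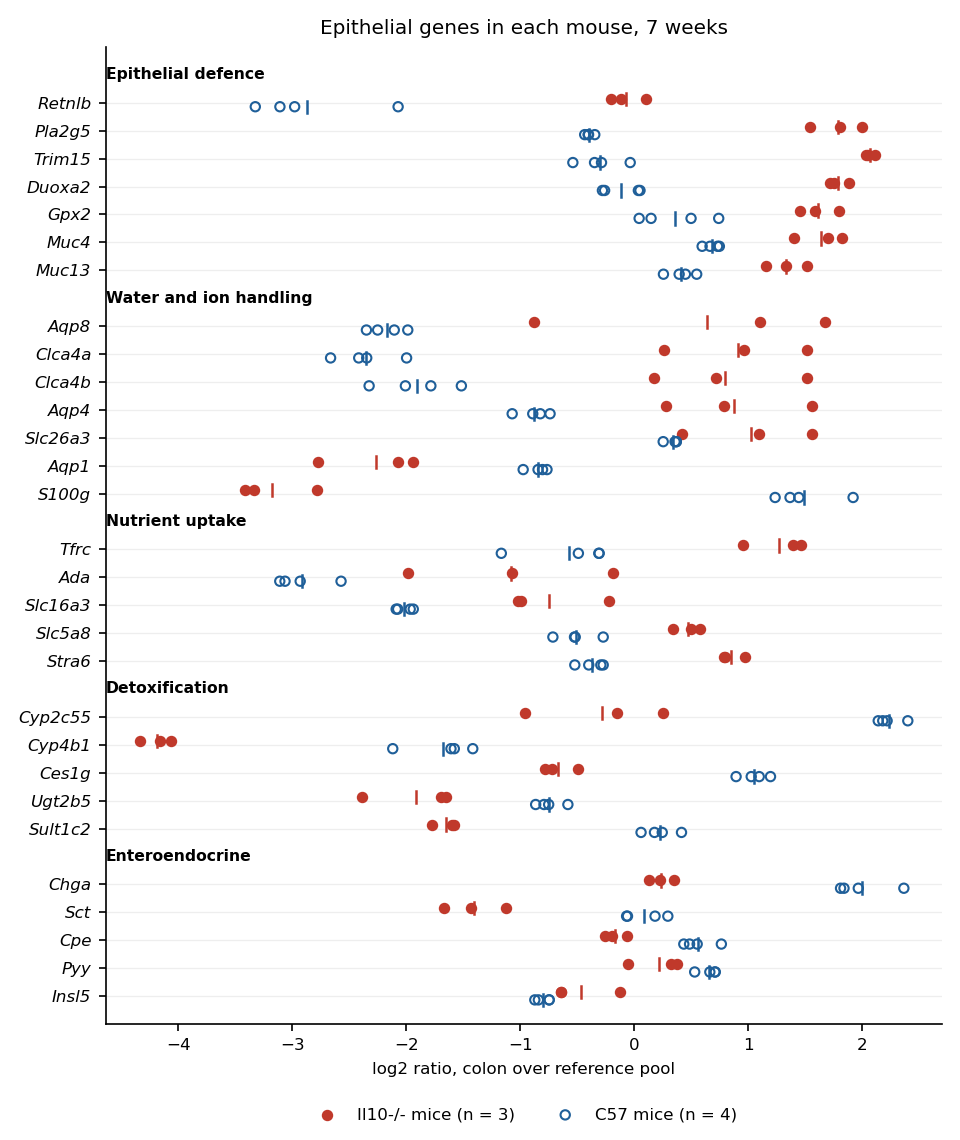
Log2 ratio of colon over reference pool (x axis) of epithelial genes and of Aqp1, a channel of small vessels (rows), in each mouse of 7 weeks. Filled red points are the 3 Il10-/- mice, open blue points the 4 C57 mice, and ticks the group means. S100g, Cyp2c55 and Chga lie far lower in Il10-/- mice, whereas Aqp8 and Clca4a lie higher with the 3 Il10-/- mice widely spread.

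Enzymes that clear drugs and lipids were called lower more often than higher, though most were not called. Of 72 cytochrome P450 genes 7 were called lower and 0 higher, of 15 carboxylesterases and their kin 5 and 0, of 14 glucuronosyltransferases 3 and 0, and of 15 sulfotransferases 3 and 0. Of 23 glutathione transferases 1 was called lower, and of 41 aldehyde, alcohol and ketone dehydrogenases and reductases 3 were called lower and 1 higher. Median differences were −0.07 for P450 genes, −0.26 for carboxylesterases, −0.24 for glucuronosyltransferases, −0.03 for sulfotransferases, −0.11 for glutathione transferases and −0.13 for the last family. Cyp2c55, abundant in the colon, stood at −0.15, 0.25 and −0.96 in Il10-/- mice, against 2.18, 2.40, 2.14 and 2.22 in C57 mice (−2.52 ± 0.34, adjusted p = 0.000221). Cyp4b1 stood at −4.34, −4.16 and −4.06 in Il10-/- mice, against −1.42, −1.61, −2.12 and −1.58 in C57 mice (−2.51 ± 0.22, adjusted p = 5.26e-06). In both genes every Il10-/- mouse lay far below every C57 mouse. Cyp2c29 (−2.06 ± 0.21), Cyp2d26 (−1.95 ± 0.27), Cyp2c40 (−1.60 ± 0.17) and Cyp2c66 (−1.43 ± 0.26) fell too, and Cyp2s1 (−0.70 ± 0.19) was not called without any 1 of C57 mice 44 and 45 or the Il10-/- mice (−0.62 to −0.80). Members of the Cyp2c family are close copies, so their probes may share signal. The features of Cyp2c40 gave −2.56 and −0.64.

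Carboxylesterases cut esters of drugs and lipids. Ces1g stood at −0.72, −0.49 and −0.78 in Il10-/- mice, against 0.89, 1.10, 1.03 and 1.19 in C57 mice (−1.72 ± 0.25, adjusted p = 0.000448). Ces1d (−1.57 ± 0.17), Ces1f (−1.44 ± 0.16) and Aadac (−0.71 ± 0.16), which lost its call under quantile normalization (−0.51), fell as well, and Ces2b (−0.76 ± 0.22) was not called without any 1 mouse other than Il10-/- mouse 77 (−0.66 to −0.80). The glucuronosyltransferases Ugt2b5 (−1.16 ± 0.20), Ugt2b37 (−1.03 ± 0.14) and Ugt2b38 (−1.0 ± 0.14) fell. Sult1c2, a sulfotransferase, stood at −1.58, −1.60 and −1.77 in Il10-/- mice, against 0.25, 0.41, 0.18 and 0.06 in C57 mice (−1.88 ± 0.10, adjusted p = 3.96e-08), and its 7 mice showed little spread. Sult1d1 fell by 1.14 ± 0.20, and Sult1a1 (−1.70 ± 0.42) lost its call without C57 mice 43 or 44 or Il10-/- mice 75 or 78 (−1.41 to −1.69).

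Abcb1a, the efflux pump P-glycoprotein, stood at 0.39 and 0.18 in Il10-/- mice 75 and 78, with no value in mouse 77, against 2.12, 2.24, 1.80 and 2.11 in C57 mice (−1.78 ± 0.18, adjusted p = 2.85e-05). Abcb4, which exports phospholipid, fell by 0.84 ± 0.11, though its features gave −1.62 and −0.05. The other 46 ABC transporters measured were not called. Nr1i2 (−0.13 ± 0.09), Nr1i3 (0.01 ± 0.14) and Ahr (−0.18 ± 0.10), receptors that sense foreign compounds and drive such genes, were not called. Slc10a2, the bile acid importer, stood at 0.52, 0.14 and −0.77 in Il10-/- mice, against 1.64, 1.76, 1.19 and 1.23 in C57 mice (−1.49 ± 0.26, adjusted p = 0.00186), lowest in mouse 78.

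The list of fatty acid oxidation genes and PPARalpha targets leaned downward, with 4 of 33 genes called lower, 0 higher and 28 of 33 differences negative. Not all of its members are oxidation enzymes. Ppara, the receptor that drives these genes, stood at −0.94, −0.82 and −1.27 in Il10-/- mice, against 0.06, 0.03, 0.04 and −0.19 in C57 mice (−1.0 ± 0.13, adjusted p = 0.000182). Acaa2, the thiolase of mitochondrial oxidation, stood at −1.24, −1.12 and −1.64 in Il10-/- mice, against −0.36, −0.22, −0.38 and −0.29 in C57 mice (−1.02 ± 0.17, adjusted p = 0.0011), with 10 features between −1.10 and −0.94. Vnn1 (−0.61 ± 0.12) and Acaa1b (−0.61 ± 0.16) were the other calls, Vnn1 not without mouse 78 (−0.52) or under quantile normalization (−0.57) and Acaa1b not under scale or quantile normalization (−0.54 and −0.45), with array weights (−0.58) or without C57 mice 43 or 44 or Il10-/- mice 75 or 78 (−0.54 to −0.60). Hao2, a peroxisomal oxidase of hydroxy acids (−1.70 ± 0.30), Nceh1, which cuts cholesterol esters (−1.78 ± 0.18), Hkdc1, of the hexokinase family (−1.88 ± 0.27), and Pck1, of gluconeogenesis (−1.42 ± 0.29), were among the large falls. Acaa1b and Hao2 stayed apart by mouse, with the highest Il10-/- mouse below the lowest C57 mouse.

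Genes of enteroendocrine cells, hormones and others, fell in part. Of 24 measured, 5 were called lower and 0 higher. Chga, the granule protein chromogranin A, stood at 0.35, 0.23 and 0.13 in Il10-/- mice, against 1.97, 2.36, 1.84 and 1.81 in C57 mice (−1.76 ± 0.32, adjusted p = 0.00292). Cpe, the enzyme that trims prohormones, fell by 0.73 ± 0.15. Chgb (−1.78 ± 0.46), neurotensin Nts (−1.44 ± 0.39) and somatostatin Sst (−0.70 ± 0.17) were called, but none of them without mouse 78 (−1.64, −1.08 and −0.59), when the list held 2 calls. Chgb also lost its call without C57 mice 43, 44 or 45 or Il10-/- mouse 77 (−1.69 to −1.81), Nts without any 1 C57 mouse (−1.35 to −1.51) and Sst without C57 mouse 44 (−0.65).

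Sct, for secretin, was not on the list and was picked out after its values were seen; it stood at −1.43, −1.12 and −1.67 in Il10-/- mice, against 0.18, −0.07, 0.29 and −0.06 in C57 mice (−1.49 ± 0.19, adjusted p = 0.000172). The colonic hormones Pyy (−0.44 ± 0.16), Gcg (−0.28 ± 0.20) and Insl5 (0.33 ± 0.10) were not called, and the Insl5 values of the Il10-/- mice lay above those of all C57 mice. Neurod1, a factor of enteroendocrine precursors, was at 0.18 ± 0.12. The share of enteroendocrine cells in the tissue was not measured.

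Of 69 serine proteases of the Klk, Prss and Tmprss families, 5 were called lower and 2 higher, with a median difference of −0.02. The higher ones were Tmprss2 (0.72 ± 0.16), which was not called without mouse 78 (0.52), and Tmprss4 (0.68 ± 0.08), membrane proteases of epithelia. Of the lower ones 4 were kallikreins, namely Klk1 and its Klk1b relatives. Klk1 stood at 0.36, 0.11 and −0.12 in Il10-/- mice, against 0.98, 1.27, 1.07 and 1.04 in C57 mice (−0.97 ± 0.22, adjusted p = 0.0106). Klk1b16 (−1.46 ± 0.33), Klk1b8 (−1.11 ± 0.24) and Egfbp2, a kallikrein outside the list by its name (−1.31 ± 0.29), showed the same order of mice among the Il10-/- animals, mouse 75 the highest and mouse 78 the lowest. None of the 4 was called without mouse 78, at −0.86, −1.26, −0.98 and −1.14. Their sequences are nearly alike, so the 4 values may not be separate measurements. Klk1b24 was also called (−0.64 ± 0.19), but not when any 1 mouse was left out (−0.58 to −0.71) or with each array centred on its median (−0.64). Prss23, a serine protease (−1.41 ± 0.16), fell in all settings, though its features gave −2.66 and −0.16.

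Hox genes hold the position of a cell along the gut. Of 39 genes of this list 4 were called higher and 1 lower. Hoxa10 stood at −0.80, −0.36 and −0.21 in Il10-/- mice, against −1.35, −1.60, −1.64 and −1.55 in C57 mice (1.08 ± 0.13, adjusted p = 0.000108). Hoxa7 (1.94 ± 0.29), Hoxa11 (0.81 ± 0.13) and Hoxa9 (0.79 ± 0.12) rose as well, while Hoxa13 (0.13 ± 0.11) and Hoxd13 (−0.04 ± 0.05), the genes of the hindmost gut, were not called. Hoxb7 (−0.99 ± 0.23) was called lower, but it stood at −0.69 in mouse 78 and at 0.85 and 0.51 in the other Il10-/- mice, and it was not called without mouse 78 (−0.54) or with the 7 arrays of 7 weeks alone (−0.99).

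Of 28 genes of tight and adherens junctions 2 were called lower, while 11 were higher and 6 lower at an unadjusted p under 0.05 in limma, with a median difference of 0.10. Cldn8, a claudin that seals against sodium, stood at −0.21, −0.55 and −0.39 in Il10-/- mice, against 0.15, 0.74, 0.65 and 0.82 in C57 mice (−0.98 ± 0.20, adjusted p = 0.00736), and Cldn5, of vessels, fell by 0.64 ± 0.11 but was not called without mouse 78 (−0.58). The pore-forming Cldn2 (−0.31 ± 0.14) and the other 25 of the 28 genes were not called. Dividing cells were marked by 9 of 39 genes of mitosis and DNA replication called higher, the largest being Birc5 (1.15 ± 0.27), Plk1 (1.03 ± 0.19), Ccna2 (0.93 ± 0.20) and Mki67 (0.92 ± 0.20). In Plk1 the mice stood at 0.91, 0.43 and 0.93 in Il10-/- mice, against −0.49, −0.32, −0.26 and −0.02 in C57 mice. Only 2 members of the list were called without mouse 78 and 4 without mouse 75. Birc5 was not called without either of these (1.11 and 0.99) or C57 mouse 43 (1.03), nor Mki67 without mouse 78 (0.75). Lgr5, the marker of crypt stem cells, was at −0.09 ± 0.07.

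Of 30 genes of T and NK cells 1 was called, Gzma, a granule protease of cytotoxic cells, at −0.51, −0.17 and −0.90 in Il10-/- mice, against −1.30, −1.53, −1.46 and −1.29 in C57 mice (0.87 ± 0.18, adjusted p = 0.00642). Cd3e (0.00 ± 0.06) and Cd8a (0.05 ± 0.08), which define T cells, were near the reference level in all 7 mice. Of 26 genes of macrophages and dendritic cells 2 were called higher, Clec7a, a receptor of fungal glucans (0.87 ± 0.09), and Aif1 (0.61 ± 0.13), and Aif1 was not called without C57 mice 45 or 46 or Il10-/- mouse 75 (0.52 to 0.58), nor under quantile normalization (0.58). At an unadjusted p under 0.05 in limma, 8 genes were higher and 0 lower in each of these lists. The list mean of macrophages ran from 0.10 to 0.21 in Il10-/- mice and from −0.07 to 0.14 in C57 mice, and that of T and NK cells from −0.06 to 0.06 and from −0.11 to −0.08. Adgre1, the macrophage marker F4/80, differed by 0.02 ± 0.10. Iglv1, an immunoglobulin light chain segment, stood at 0.68, 0.47 and 0.97 in Il10-/- mice, against 2.12, 1.66, 1.97 and 1.72 in C57 mice and fell (−1.16 ± 0.22, adjusted p = 0.00383), whereas Ms4a1, the B cell marker CD20, was at −0.04 ± 0.08. Whether shares of these cells bear on the gene groups above was not tested.

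In the wall, 0 of 24 smooth muscle genes and 0 of 22 genes of enteric neurons and glia were called, with medians of −0.19 and −0.09. At an unadjusted p under 0.05 in limma these lists held 0 higher and 4 lower, and 2 higher and 5 lower. Endothelial genes had 2 of 22 lower, Emcn at −1.59, −1.87 and −1.80 in Il10-/- mice, against −0.96, −0.95, −1.04 and −0.95 in C57 mice (−0.78 ± 0.08, adjusted p = 4.13e-05) and Cd34 (−0.77 ± 0.15), while Pecam1 differed by −0.08 ± 0.07. Thbd, the thrombomodulin of vessel walls, fell by 1.0 ± 0.14. Of 15 adipocyte genes 1 was called lower, the lipoprotein lipase Lpl (−0.78 ± 0.21), which lost its call under scale and quantile normalization (−0.69 and −0.61) and without C57 mice 43 or 45 or Il10-/- mice 77 or 78 (−0.63 to −0.80). In that list 12 differences were negative and the median was −0.24. Single mice differed widely, with Adipoq, the adipocyte hormone, at 1.46, 0.16 and −0.71 in Il10-/- mice, against 1.89, 1.05, 1.47 and 0.08 in C57 mice, not called (−0.82 ± 0.50). Mouse 78 was the lowest of all in Adipoq and in Fabp4 (−2.15). Clps, the pancreatic colipase, stood at −1.61, −1.45 and −1.31 in Il10-/- mice, against −0.54, −0.54, −0.60 and −0.50 in C57 mice (−0.92 ± 0.08, adjusted p = 4.98e-06), although 13 of the 14 acinar genes were not called.

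**Figure D4:**
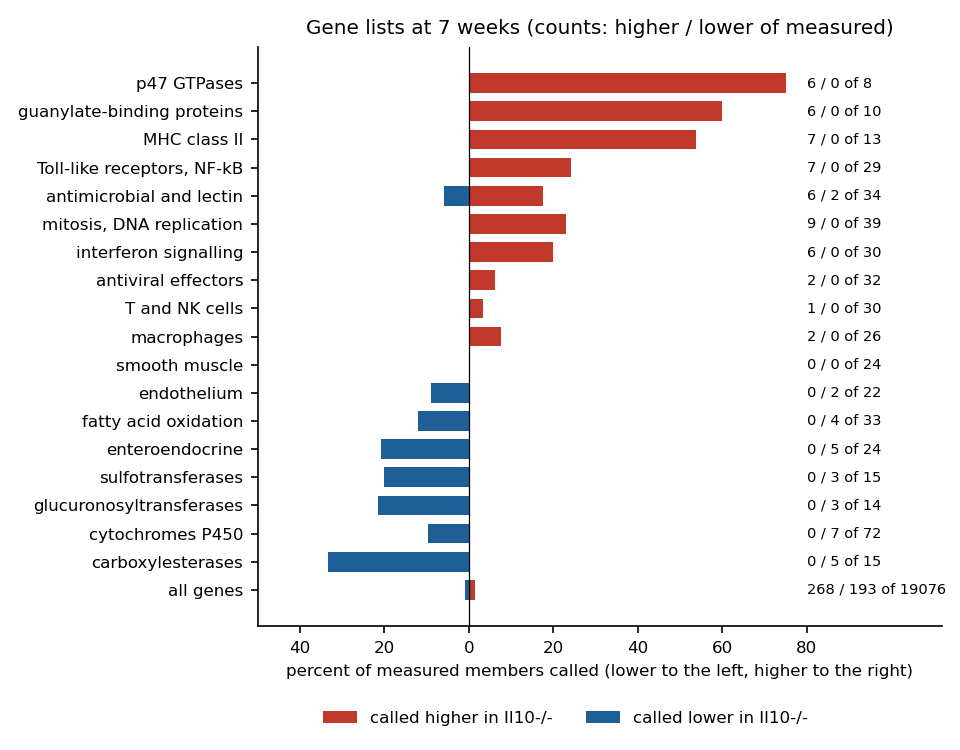
Percent of the measured members of each gene list (rows) called lower (blue bars to the left) or higher (red bars to the right) in Il10-/- mice of 7 weeks, with the counts at the right edge. The fatty acid oxidation row also holds PPARalpha targets. All genes together, 1.4% higher and 1.01% lower, stand in the bottom row; the p47 GTPases reach 75.0% and carboxylesterases 33.3% in the other direction.

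The difference at 7 weeks was then set against that at 12 weeks, when the Il10-/- mice had colitis, by testing the change in the difference itself. Of all genes 1.15% were called in that test, and of the 461 genes called at 7 weeks 71 were, or 15.4%. These genes were chosen by the 7-week values that also enter the test, so this share is a description. In 60 of the 71 the difference went further in its own direction at 7 than at 12 weeks, and in 11 it went further at 12 weeks. Choice by the 7-week values favours larger differences at 7 weeks, so this split is a description as well. Aqp8 changed most, with 2.81 at 7 weeks and −2.21 ± 0.42 at 12 weeks (change 5.02 ± 0.62, adjusted p = 0.00168). S100g was at −4.67 and −1.82 ± 0.22, a change of −2.85 ± 0.32 (adjusted p = 0.000876). At 12 weeks Aqp8 stood at −0.46, −1.27, 0.33 and 0.03 in Il10-/- mice, against 1.52, 1.80, 1.84 and 2.29 in C57 mice, whose 4 values at 7 weeks were all lower than any of these. S100g stood at −2.63, −3.39, −3.17 and −3.35 in Il10-/- mice of 12 weeks, close to the 7-week Il10-/- values, against −1.63, −1.23, −0.74 and −1.68 in C57 mice, which lay far below the 7-week C57 values.

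Iglv1 was lower at 7 weeks and higher at 12 weeks (1.64 ± 0.21, change −2.80 ± 0.30). Il18 (change 1.19), Hoxa10 (1.26), Hoxa11 (0.97), Hoxa9 (0.96) and Prr15 (1.46) were higher at 7 weeks and −0.76 to −0.16 at 12 weeks. Mptx1, a mucosal pentraxin (−1.74 at 7 weeks), and Thbd had weaker differences at 12 weeks (−0.42 and −0.07). The change of Thbd was not called without Il10-/- mice 77 or 78 of 7 weeks, and the 7-week call of Prr15 was lost without mouse 78 (0.53). Psmb8 (2.40), H2-Ab1 (1.99) and H2-Aa (1.51) stood higher at 12 weeks than at 7, as did Clec7a (1.74), and Aadac fell further (−2.16). For Clca4a (change 2.49), Aqp4 (1.32), Tfrc (1.19), Aqp1 (−1.15) and H2-Eb1 (−0.84) the change was called with all 15 arrays, but leaving out 1 array ended the call in 2 to 11 of 15 cases each. The p47 GTPases and guanylate-binding proteins had 0 members with a called change, which does not show that their differences were the same at both ages.

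**Figure D5:**
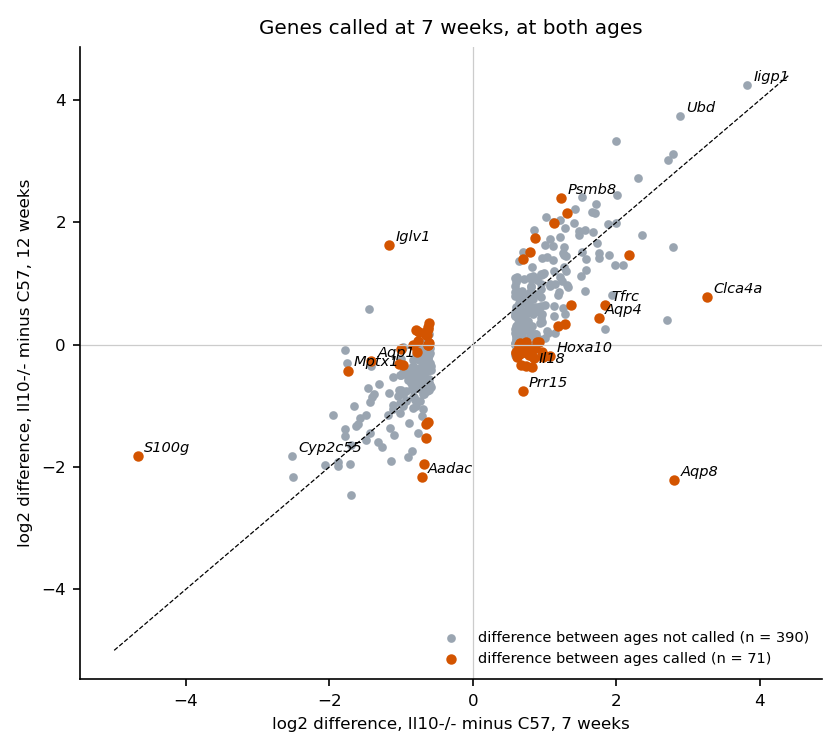
Log2 difference of Il10-/- minus C57 mice at 7 weeks (x axis) and 12 weeks (y axis) for the 461 genes called at 7 weeks; orange points are the 71 genes whose difference changed between ages, and the dashed line marks equal differences. Aqp8 lies at 2.81 and −2.21 and S100g at −4.67 and −1.82, both far from the line, while Iigp1 lies near it.

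Genes beside Il10 were read because the disrupted allele was made in another mouse strain and brings its surroundings along. Of the 10 genes measured on either side of Il10 in the RefSeq order, 1 was called (5.0%, beside 2.42% of all genes). It was Rab7b, the tenth gene after Il10, at −0.04, 0.19 and 0.04 in Il10-/- mice, against 0.73, 1.15, 0.88 and 0.74 in C57 mice (−0.81 ± 0.12, adjusted p = 0.000712). Pigr, the receptor that carries IgA into the lumen (0.56 ± 0.12, adjusted p = 0.00801), Fcamr (−0.43 ± 0.09, adjusted p = 0.00687) and the gene AA986860 (−0.57 ± 0.09, adjusted p = 0.000725) passed the adjusted p but not the fold, and Pigr was called without C57 mouse 44 (0.63) or Il10-/- mouse 75 (0.61). AA986860 was called without C57 mouse 46 or Il10-/- mouse 77 and under scale and quantile normalization (−0.60 to −0.63). The cytokines next to it, Il19 (0.04 ± 0.10), Il20 (0.07 ± 0.07) and Il24 (−0.09 ± 0.06), and Mapkapk2 on the other side (0.02 ± 0.06) were not called. Sequence differences under the probes were not examined.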

How the data were processed

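RNA of full-thickness colon, 1 mouse per array, was labelled with Cy3 and hybridized with a Cy5-labelled pool of mouse tissues and fetuses. The authors deposited normalized log2 ratios per feature, which were used as given; a positive value means more RNA in colon. Ratios were averaged over the features with 1 annotated gene symbol, which gave 19076 genes from 32016 features; 10112 tested features with no or several genes were left out of the gene values. Groups were the genotype and age in the titles. With limma 3.58.1 in R 4.3.3, 4 group means were fitted to 15 arrays, and genes were called at 1.5-fold and a Benjamini-Hochberg adjusted p under 0.05. Arrays give no read depth, and the number of mice limits the precision. The procedure was tested on simulated data. Genes and lists were chosen with earlier results of these data known. Genes named come from the largest differences, the largest changes between ages, and the called and defining members of each list, unless stated. Not all genes of these kinds are named. Alternatives changed scaling, weights, the feature rule, the arrays fitted, the thresholds and single arrays. Near-identical genes (p47 GTPases, guanylate-binding proteins, Cyp2c, Ces1, Ugt2b, kallikreins, H2) may share signal and are uncertain singly.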

Additional observations from a re-analysis of the deposited data

Results flagged for a closer look

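In 13 of the 213 named genes with values in all 4 C57 mice of 7 weeks, 1 mouse stood apart from the other 3, by a gap to its neighbour that exceeds Dixon's 95% critical value as a share of the range of the 4 values. Chance gives such a gap in about 1 group in 20. Shares of the range follow in parentheses. C57 mouse 43 was the highest in Isg15 (0.928), Oas1a (0.887), Rsad2 (0.837) and Usp18 (0.89). C57 mouse 44 was the highest in Il1b (0.911). C57 mouse 44 was the lowest in Slc26a3 (0.901) and Trpv6 (0.838). C57 mouse 45 was the highest in Reg3g (0.841). C57 mouse 45 was the lowest in Emcn (0.845). C57 mouse 46 was the highest in Acsm3 (0.931) and Maob (0.895). C57 mouse 46 was the lowest in Casp4 (0.836) and Ppara (0.85).

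In 27 of the 214 named genes the change in the difference between 7 and 12 weeks was called, by limma's test with Benjamini-Hochberg adjustment. Some genes were named because of this same test, so that count is a description. Of all genes 1.15% were called in it. The 7-week minus the 12-week log2 difference was called, and stayed called when any 1 of the 15 arrays was left out, for Aadac (1.45), Aqp8 (5.02), Clec7a (−0.87), Emcn (−0.67), H2-Aa (−0.71), H2-Ab1 (−0.86), Hoxa10 (1.26), Hoxa11 (0.97), Hoxa9 (0.96), Iglv1 (−2.80), Il18 (1.19), Mptx1 (−1.32), Prr15 (1.46), Psmb8 (−1.17), S100g (−2.85) and Slc26a3 (2.19). It lost the call without at least 1 array for Ang (−0.63, and −0.71 to −0.54 with 1 array left out, lost in 5 of 15), Aqp1 (−1.15, and −1.31 to −0.89 with 1 array left out, lost in 11 of 15), Aqp4 (1.32, and 0.98 to 1.62 with 1 array left out, lost in 2 of 15), Car4 (1.02, and 0.82 to 1.21 with 1 array left out, lost in 12 of 15), Clca4a (2.49, and 2.04 to 2.82 with 1 array left out, lost in 8 of 15), Cxcl12 (−0.88, and −1.08 to −0.74 with 1 array left out, lost in 9 of 15), Ebp (0.63, and 0.58 to 0.69 with 1 array left out, lost in 2 of 15), H2-Eb1 (−0.84, and −0.93 to −0.75 with 1 array left out, lost in 9 of 15), Pla2g5 (0.71, and 0.60 to 0.83 with 1 array left out, lost in 1 of 15), Tfrc (1.19, and 0.99 to 1.35 with 1 array left out, lost in 10 of 15) and Thbd (−0.94, and −1.12 to −0.84 with 1 array left out, lost in 2 of 15).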

How the results depend on the processing

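With 461 genes called at 7 weeks and 219 whose difference changed between ages, the counts were 1565 and 430 with no fold threshold, 131 and 58 at 2-fold, 62 and 3 when limma's treat tested against 1.5-fold, and 903 and 517 with features as the unit. Leaving out 1 array gave 330 (without Il10-/- mouse 78 of 7 weeks) to 497 calls at 7 weeks, and 136 (without the same mouse) to 262 for the change. Scaling, median centring, quantile normalization, array weights, a robust prior, the most variable feature (691 and 308, the former just inside the bound), and complete features or genes left both counts within 1.5 times. So did the 7 arrays of 7 weeks alone for the 7-week count (490), where the change cannot be fitted. The share of calls that were higher was 58.1%, and 74.2% under treat. Of 214 genes named, 159 kept their side of the threshold under the 17 settings run gene by gene, which leave out the other thresholds and features as the unit, 43 lost and 12 gained a call under at least 1, and none changed sign while called; the cause was not tested. Leaving out values that many features share, chosen after seeing the data, gave 462 and 224; it removed Retnlb and Reg3g, the named genes that hold such values, so it tests no other named gene. Under quantile normalization Bcl3 (0.65), Tnfaip3 (0.54), Nfkbiz (0.55), Cxcl12 (−0.51) and Cxcr6 (0.50) lost the call, and with the most variable feature Cxcl12 did (−0.46), while Ifit2 (0.82) and Parp9 (0.92) were called. No paired analysis was possible because the groups share no mouse numbers.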
